A study of Mus musculus with 6 samples.

Results

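The genes described here are 8 transcripts of platelets and of megakaryocytes, the bone marrow and lung cells that shed platelets. They are Ppbp, Pf4, Itga2b, Itgb3, Gp1ba, Gp1bb, Gp9 and Treml1, chosen by name, and all 8 were present among the 21900 genes of the deposited table. The values are RNA-seq levels in whole mouse lung, in CPM (counts per 1000000 reads assigned to genes). The 6 libraries come from mice on a high fat diet (a western diet in the series title) for 10 weeks, a treatment that both groups share. One group is labelled Wild Type and the other Cyp1b1 KO, a knockout of the cytochrome P450 enzyme CYP1B1, and each holds libraries of 2 females (replicates 1 and 2) and 1 male (replicate 3), numbers that only name the libraries. The study asked how loss of CYP1B1 affects the lung under this diet. Strain, age and knockout allele are not in the labels. Nor do they say that each library is a different mouse, so the p-values speak only of spread among the libraries.

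Cyp1b1 itself goes against the labels. Its levels under the wild type label were 12.5, 19.0 and 18.5 CPM (replicates 1, 2 and 3) and under the knockout label 51.2, 56.1 and 48.4 CPM, so every direction below is one between labels. The male labelled knockout also stands apart from the other libraries in markers of blood cells, whose values are given beside the results. The male labelled wild type stands apart in T cell markers, also given there. Depth, read from the step between low CPM values, was between 20.2 M and 27.6 M assigned reads (M, 1000000). The lung label matched its markers, since 6 alveolar epithelial genes summed to between 14522 and 20965 CPM in every library.

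Megakaryocytes load platelets with proteins and RNA before releasing them, and platelets have no nucleus, so platelet RNA in a tissue is inherited from megakaryocytes. The lung holds both megakaryocytes and a large pool of circulating platelets. The members cover the main tools of a platelet. Ppbp and Pf4 encode CXC chemokines stored in alpha granules, with PPBP giving rise to a neutrophil attractant that acts on CXCR2. Itga2b and Itgb3 encode the 2 chains of integrin alphaIIb-beta3, the fibrinogen receptor through which platelets aggregate. Gp1ba, Gp1bb and Gp9 encode subunits of the GPIb-IX-V complex, which binds von Willebrand factor on a damaged vessel wall. Treml1 encodes a receptor stored in alpha granules that reaches the surface on activation. GATA1 and ETS factors such as FLI1 are known to drive many of these genes in megakaryocytes.

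The stretch of DNA before each start site is shown for 4 members because they reached their highest level in the same library and because they differ in GATA and ETS core motifs. RefSeq promoter windows on GRCm38.p6 (250 bases before to 50 after the start) were found for 7 of the 8 members, not for Itgb3. The GATA search took AGATAA, in which the first base could also be T and the last G. The ETS search took AGGAAG, in which the first base could also be C, and both searches covered both strands. No letters of one motif overlap the other in the members. The sequences give the 250 bases before the start, 5′ to 3′ on the gene's strand, with motif matches in capitals.
Ppbp, with no match, plus strand, chr5:90768268-90768517: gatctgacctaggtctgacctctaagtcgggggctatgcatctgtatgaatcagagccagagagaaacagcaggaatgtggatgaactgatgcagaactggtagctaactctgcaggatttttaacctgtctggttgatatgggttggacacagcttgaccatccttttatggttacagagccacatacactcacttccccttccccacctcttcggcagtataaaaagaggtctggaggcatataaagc
Pf4, with an ETS match, plus strand, chr5:90772185-90772434: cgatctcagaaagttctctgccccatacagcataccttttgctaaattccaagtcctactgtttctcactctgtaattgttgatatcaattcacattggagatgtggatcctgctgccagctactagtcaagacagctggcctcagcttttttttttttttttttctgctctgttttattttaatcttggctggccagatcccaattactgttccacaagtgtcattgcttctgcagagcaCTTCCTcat
Gp1ba, with 3 GATA matches and 1 ETS match, plus strand, chr11:70638872-70639121: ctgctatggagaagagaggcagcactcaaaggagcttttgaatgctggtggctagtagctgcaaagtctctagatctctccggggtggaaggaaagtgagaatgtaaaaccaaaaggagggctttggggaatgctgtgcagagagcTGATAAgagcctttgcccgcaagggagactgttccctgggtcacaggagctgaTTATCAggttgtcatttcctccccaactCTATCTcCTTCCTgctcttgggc
Gp1bb, with a GATA and an ETS match, minus strand, chr16:18622404-18622653: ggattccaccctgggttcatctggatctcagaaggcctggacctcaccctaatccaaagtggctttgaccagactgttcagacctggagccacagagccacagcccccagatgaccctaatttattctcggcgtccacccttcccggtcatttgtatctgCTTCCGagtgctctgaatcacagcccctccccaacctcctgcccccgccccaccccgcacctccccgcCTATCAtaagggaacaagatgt
In the full windows a GATA match was found in 3 of 7 members (Pf4, Gp1ba and Gp1bb), against 29.8% of 32851 promoters. An ETS match was found in 5 of 7 (Pf4, Gp9, Gp1ba, Itga2b and Gp1bb), against 46.5%, and both in 3 of 7 against 12.6%. The GATA match of Pf4 begins 36 bases after the start and the other ETS match of Gp1bb 20 bases after it, beyond the bases shown. The windows of Ppbp and Treml1 held neither motif, and a link between the motifs and the levels described next was not tested. A match is a run of letters and not a measured binding site.

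All 8 members had their highest level in the male labelled knockout, as did 17.6% of all tested genes. In the other 5 libraries, male and female, their levels ran from 0.627 CPM (Treml1) to 48.4 CPM (Itgb3). The male labelled knockout exceeded the highest of the other 5 libraries by 3.53-fold (Itgb3) to 9.24-fold (Gp1bb). In whole tissue, more platelets or megakaryocytes and more RNA in each of them cannot be told apart.

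**Figure D1:**
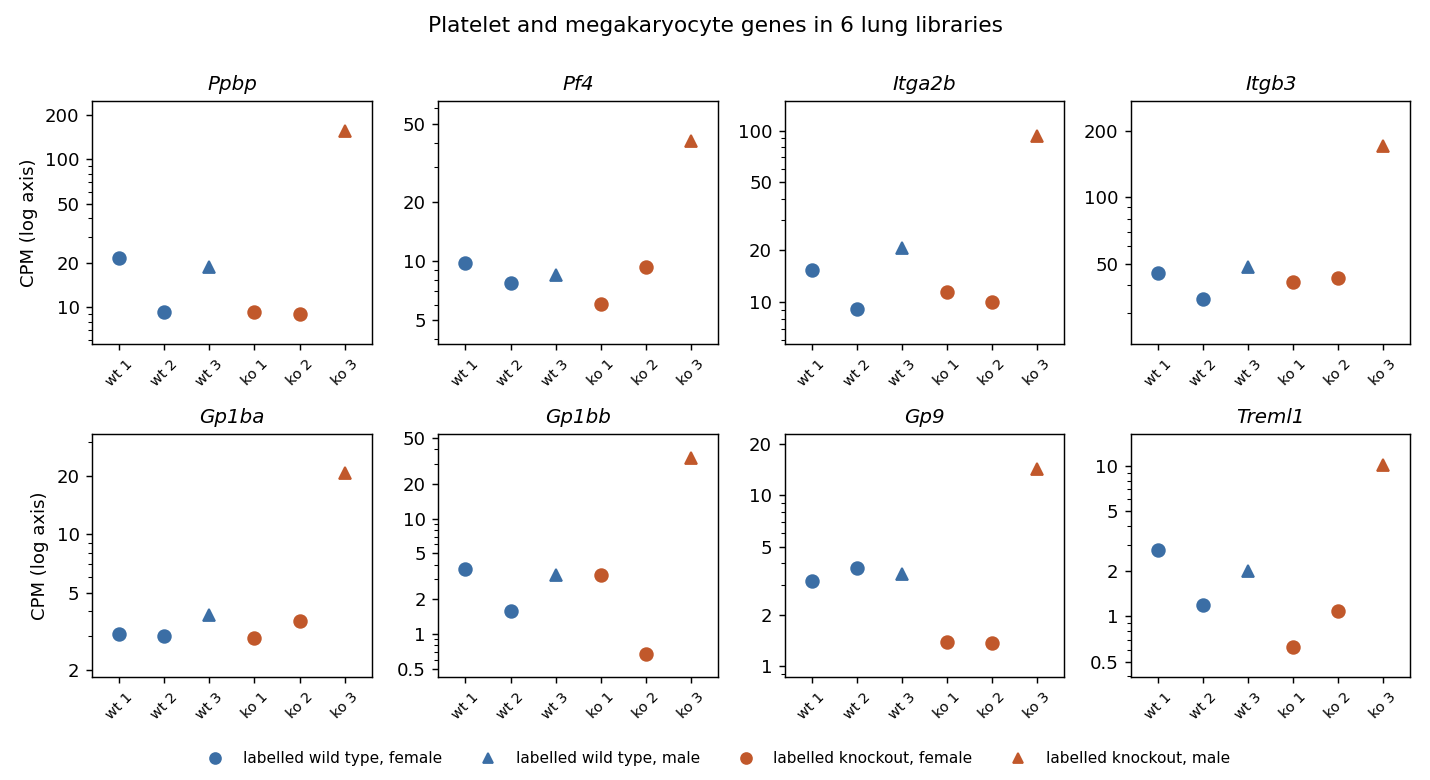
Level of each of the 8 genes in CPM on a log axis, 1 point per library, by label and sex. The male labelled knockout is the highest point for every gene, from 10.2 CPM (Treml1) to 171 CPM (Itgb3), while the male labelled wild type lies within the range of the 4 females for 5 of the 8.

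Among the chemokines, Ppbp (ENSMUSG00000029372, chr5:90768518-90770063, plus strand, mm10) stood at 21.4, 9.30 and 18.7 CPM in wild type replicates 1, 2 and 3 by label. In the same order the knockout label gave 9.36, 9.03 and 156 CPM. The last of these, the male, was 17 times the mean of the 2 females of its label and 8.34 times the male labelled wild type. Both females labelled knockout lay close to wild type female 2, so the labels overlap. Pf4 (ENSMUSG00000029373, chr5:90772435-90773383, plus strand) starts 2372 bases after the end of Ppbp. Its levels were 9.76, 7.72 and 8.49 CPM under the wild type label and 6.05, 9.28 and 40.9 CPM under the knockout label. The 5 lower libraries of Pf4 spread less than those of Ppbp, with a female range of 1.61-fold against 2.37-fold, and the male labelled knockout was 5.34 times its females.

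Of the integrin chains, Itga2b (ENSMUSG00000034664, chr11:102453297-102470122, minus strand) makes the alphaIIb chain, which is largely restricted to the megakaryocyte line. It stood at 15.4, 9.10 and 20.5 CPM under the wild type label and at 11.4, 10.0 and 93.6 CPM under the knockout label. The male labelled wild type was next in order, above all 4 females. Itgb3 (ENSMUSG00000020689, chr11:104608000-104670476, plus strand) makes the beta3 chain, which other cells also use, paired with alphaV. It was the most highly read member, at 45.5, 34.8 and 48.4 CPM against 41.5, 43.4 and 171 CPM. Its females varied by 1.31-fold, and the male labelled knockout was 4.03 times the females of its label, the smallest such ratio of the 8. Itgav, the alphaV partner, stayed between 76.6 and 89.1 CPM in all 6 libraries, with 76.9 CPM in the male labelled knockout.

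Of the von Willebrand factor receptor, Gp1ba (ENSMUSG00000050675, chr11:70639122-70642036, plus strand) encodes the chain that binds the ligand. It stood at 3.06, 2.97 and 3.84 CPM under the wild type label and at 2.91, 3.55 and 20.7 CPM under the knockout label. Its 4 females differed by only 1.22-fold, the narrowest range of the 8. Gp1bb (ENSMUSG00000050761, chr16:18620317-18622403, minus strand), another subunit of the complex, stood at 3.66, 1.57 and 3.24 CPM against 3.25, 0.673 and 33.8 CPM. It had the widest female range, 5.44-fold, and its lowest value rests on an estimated 18.6 reads. Rounded to 19 reads, the 95% Poisson interval is 0.415 to 1.08 CPM (counting error only). That interval is approximate, because the estimated reads of this gene are not whole numbers. Gp1bb overlaps Sept5 and Gm49601 on the same strand, so its reads cannot be assigned to it with certainty. Gp9 (ENSMUSG00000030054, chr6:87778072-87779768, plus strand), a small subunit needed to carry the complex to the surface, stood at 3.14, 3.76 and 3.46 CPM against 1.39, 1.38 and 14.3 CPM. Both females labelled knockout were below all 3 libraries labelled wild type, on 31 and 38 reads.

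Treml1 (ENSMUSG00000023993, chr17:48359916-48367176, plus strand) had the lowest levels, at 2.76, 1.19 and 2.01 CPM under the wild type label and 0.627, 1.09 and 10.2 CPM under the knockout label. The first of the knockout values rests on 14 reads (95% Poisson interval 0.343 to 1.05 CPM). Treml1 and Cyp1b1 share chromosome 17, at a distance of 31.3 Mb. Treml1 and Gp9 were the 2 members whose females labelled knockout both lay below both females labelled wild type, an order that 14.6% of all tested genes shared. No member had the reverse order.

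Set per kilobase of exon, which allows genes to be compared, the chemokines led. In the male labelled knockout, Ppbp reached 144 CPM per kb, Pf4 56.7, Itgb3 29.0, Itga2b 17.2, Gp9 and Gp1bb 16.2 each, Gp1ba 7.62 and Treml1 7.29. As the median of the other 5 libraries, Pf4 came before Ppbp, at 11.8 against 8.65 CPM per kb, but their ranges overlap (8.39 to 13.5 and 8.34 to 19.8). Itgb3 followed at 7.35 CPM per kb, and its range of 5.89 to 8.20 overlaps neither chemokine. Gp9 (3.56), Itga2b (2.09) and Gp1bb (1.55) overlap one another, as do Gp1bb, Gp1ba (1.12) and Treml1 (0.847).

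Tested with limma across 17382 genes on log2(CPM + 0.5), all 8 members rose in the male labelled knockout against the 2 females of its label (adjusted p under 0.05 over all genes). Of all genes, 2.48% passed as higher, 2.50% as lower and 4.98% in either direction; after centring each library on its median gene the higher and lower calls were 790 and 310, against 431 and 435 here. This comparison has 1 male on one side, and its spread is that of the females, to which a lone library is assumed to conform. Ppbp was higher by 4.02 on the log2 scale (SE 0.40, limma adjusted p = 0.00198) and Gp1bb by 4.03 (SE 0.68, limma adjusted p = 0.0174). The integrin chains differed by less but with tighter errors, by 3.07 (SE 0.30) for Itga2b and 2.0 (SE 0.18) for Itgb3. Treml1 rose by 3.0 (SE 0.51), Gp9 by 2.97 (SE 0.36), Gp1ba by 2.51 (SE 0.34) and Pf4 by 2.37 (SE 0.32). The median of the 8 was 2.99, against -0.13 over all genes tested. Without a filter on low values, which tests all 21900 genes, none of the 8 passed in limma (adjusted p from 0.0880 to 0.150), although the log2 differences do not depend on that filter.

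The same comparison under the wild type label gave no call. None of the 8 passed between the male labelled wild type and its females in limma, where 4.07% of all genes did, and 1 had an unadjusted p under 0.05, as did 16.9% of all genes. That gene was Itga2b, with a log2 difference of 0.77 (SE 0.30, limma adjusted p = 0.242), which passed when labelled wild type 1 was left out (1.13, limma adjusted p = 0.0440). The median over the members was 0.29, against 0.01 over all genes. Over all genes, 599 were called higher in this male (3.45%) and 109 lower (0.627%).

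The question of the label itself was met by a fit over all 6 libraries with sex as a term. None of the 8 members passed in limma and none had an unadjusted p under 0.05 (5.13% of all genes had), where 0.0115% of all genes passed, all of them lower. The group means differed by less than the spread, for example 16.5 ± 6.37 CPM (SD, n = 3) for Ppbp under the wild type label and 58.2 ± 84.9 CPM (SD, n = 3) under the knockout label. For Itgb3 they were 42.9 ± 7.16 and 85.3 ± 74.2 CPM (SD, n = 3 each). Exact two-sided permutation tests of 3 against 3 libraries gave p from 0.6 to 1.0 over the 8 genes, where 0.1 is the smallest p possible. The labels overlapped for all 8, while 9.52% of tested genes had labels that did not overlap (5.89% lower under the knockout label). The median log2 difference of the members was 0.62 against -0.06 over all genes. Without the male labelled knockout, and equally without the other male, the sign turned for 5 of them, to -0.60 for Ppbp, -0.20 for Pf4, -0.14 for Itga2b, -0.48 for Gp1bb and -0.81 for Treml1, and again none passed.

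In the females alone, 2 against 2, no member's difference between labels passed in limma (0.0230% of all genes did, 0.00575% as higher and 0.0173% as lower), and 1 had an unadjusted p under 0.05, as did 2.59% of all genes. That was Gp9, at 3.45 CPM on average under the wild type label and 1.38 CPM under the knockout label, with a log2 difference of -1.06 (SE 0.30, limma adjusted p = 1.0). Treml1 differed by -0.81, Ppbp by -0.60, Gp1bb by -0.48, Pf4 by -0.20, Itga2b by -0.14, Gp1ba by 0.08 and Itgb3 by 0.09. The member median was -0.34 against -0.00 over all genes.

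The difference between the sexes in the label effect was then tested as an interaction. Of the 8 members, 5 passed in limma, all toward a higher level in the male labelled knockout, while 0.702% of all genes passed in that direction, 1.84% in the other and 2.54% in either. Calls in the 2 directions numbered 122 and 319, and 348 and 313 after centring on the median gene. They were Ppbp (log2 difference 3.62, SE 0.57, limma adjusted p = 0.0162), Itgb3 (1.72, SE 0.26, 0.0137), Gp9 (2.97, SE 0.51, 0.0239), Itga2b (2.30, SE 0.43, 0.0325) and Pf4 (2.40, SE 0.45, 0.0328). Gp1ba (2.21, limma adjusted p = 0.0543), Treml1 (2.91, 0.0814) and Gp1bb (3.68, 0.0952) did not pass. All 8 had an unadjusted p under 0.05, as did 17.9% of all genes. The count was 8 after centring each library on its median gene, 3 without labelled knockout 1 and 0 without a filter on low values. The comparison with the females of the same label and this one share libraries, and each label has 1 male, so sex and the single library cannot be told apart.

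**Figure D2:**
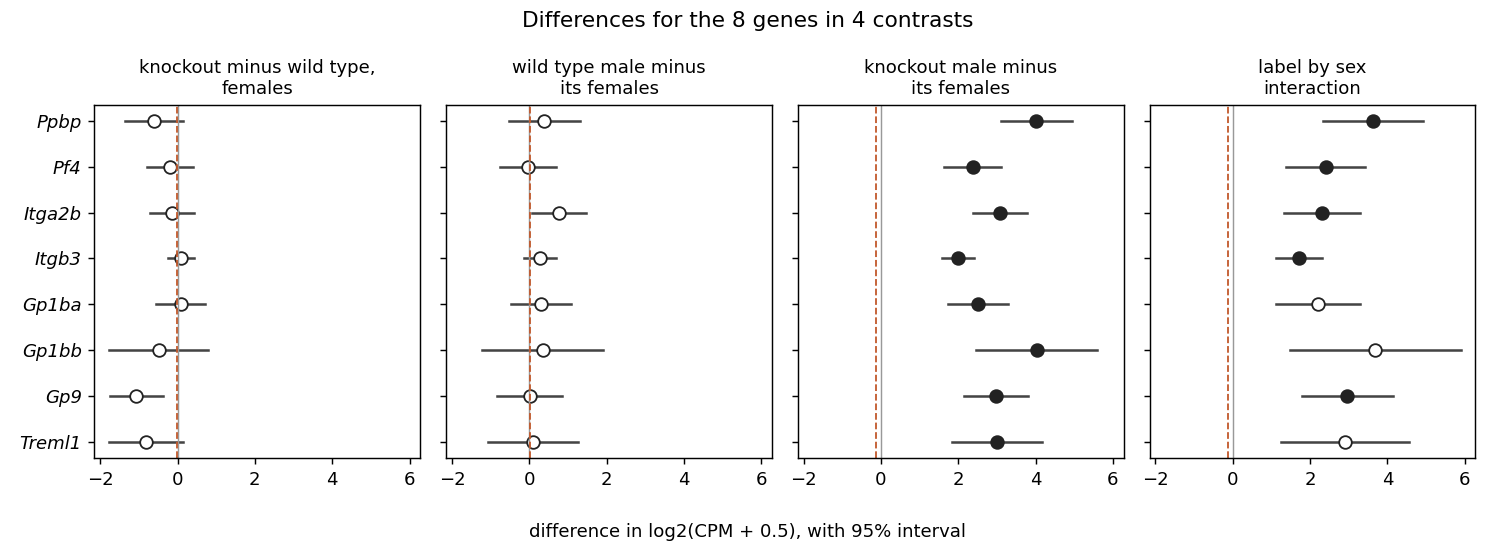
Fitted differences in log2(CPM + 0.5) for the 8 genes in 4 comparisons, with 95% intervals; filled points have a limma adjusted p under 0.05 and the dashed line is the median of all genes tested. All 8 points are filled for the male labelled knockout against its females, 5 for the interaction, and none for the females or for the male labelled wild type.

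Other genes of the platelet programme shared the direction in part. In the lists below, rose and fell mean a limma call at the threshold, and some uncalled genes were lower. In the male labelled knockout against its females, the lowest log2 differences of the 4 platelet lists were -1.04, -0.66, -0.75 and -0.55. The first was that of Tbxa2r, at 11.8 and 9.10 CPM in the females and 4.80 CPM in the male. In the male labelled knockout against its females, 6 of 15 platelet surface receptors rose and none fell, with a list median of 1.21. Gp5, the remaining subunit of the von Willebrand factor receptor, stood at 3.67 and 2.94 CPM in the females and 28.3 CPM in the male (log2 difference 2.93, SE 0.36, limma adjusted p = 0.00516). P2ry1, an ADP receptor, rose by 1.84, F2rl2, a thrombin receptor, by 2.22, and P2ry12, the ADP receptor that clopidogrel blocks, by 1.81. Of 15 granule and secretion genes, 4 rose and none fell, with a median of 0.46. Coagulation factor V (F5) went from 8.24 and 5.15 to 54.9 CPM and factor XIII A chain (F13a1) from 28.4 and 26.0 to 129 CPM. Srgn, the granule proteoglycan, rose by 1.01 and Nbeal2, needed to form alpha granules, by 0.91. F13a1 and Srgn also rose in the male labelled wild type, to 39.9 and 196 CPM. The females of that label stood at 24.6 and 21.1 CPM for F13a1 and at 134 and 114 CPM for Srgn.

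Among 18 genes of cytoskeleton and signalling, 4 rose and none fell, with a median of 0.55. Tubb1, the platelet beta tubulin, went from 6.05 and 6.74 CPM to 65.1 CPM, and Alox12, platelet 12-lipoxygenase, from 7.26 and 5.80 to 53.4 CPM. Fermt3 (kindlin-3, which activates integrins) rose by 1.78 and Plek (pleckstrin) by 1.6, and both also rose in the male labelled wild type, by 1.19 and 1.32. Of 12 tested regulators of the megakaryocyte line, mostly transcription factors, 2 rose and none fell, with a median of 0.42. They were Nfe2, from 8.74 and 5.95 to 52.0 CPM, and Gata1, from 0.896 and 0.761 to 5.69 CPM, both factors that red cell precursors also use. For these 4 lists, and for the partner and neighbour lists below, the background of higher calls in this comparison is the 2.48% given above.

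**Figure D3:**
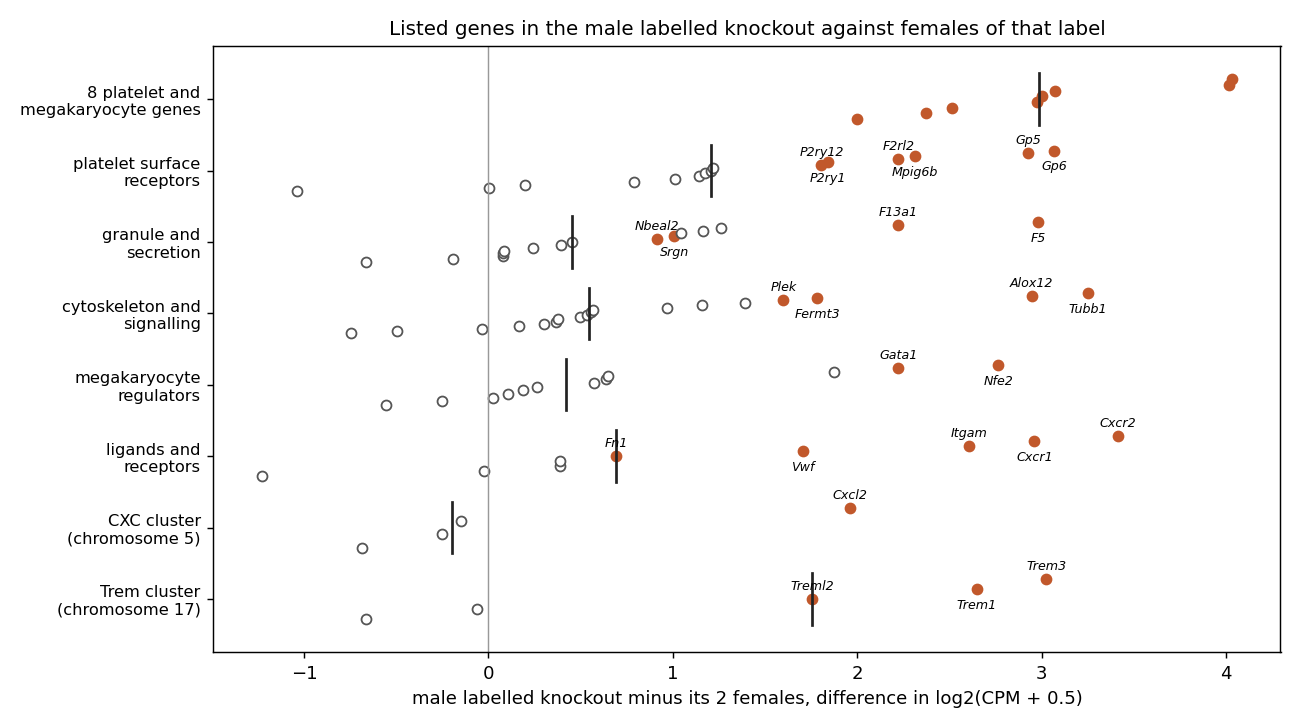
Difference in log2(CPM + 0.5) between the male labelled knockout and its 2 females for each tested gene of the listed groups; filled points have a limma adjusted p under 0.05 and are named outside the top row, and the vertical bar is the list's median. The 8 members lie between 2.0 and 4.03, and the medians of the other lists between -0.20 and 1.76.

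In the interaction the same lists gave fewer calls. Gp5 (2.63) was the 1 surface receptor of 15 that passed, F5 (2.84) and F13a1 (1.43) the 2 of 15 granule genes, and Tubb1 (3.01) and Alox12 (2.95) the 2 of 18 cytoskeletal and signalling genes. None of the 12 regulators passed in limma, and 3 had an unadjusted p under 0.05, a share near the 17.9% of all genes. Nfe2 had a log2 difference of 1.68. In the male labelled wild type, 1 of 15, 2 of 15, 5 of 18 and 0 of 12 genes rose in these 4 lists, against 3.45% of all genes, and none fell. The label effect over all libraries and the female comparison called none of the genes in these lists.

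Several partners of the member proteins rose in the same library. Vwf, the ligand of the GPIb-IX-V complex, is made by endothelium and megakaryocytes. It stood at 701, 676 and 517 CPM under the wild type label and at 550, 611 and 1891 CPM under the knockout label. It rose by 1.70 (SE 0.14, limma adjusted p = 0.000643) in the male labelled knockout and passed the interaction test at 2.12. Cxcr2, a receptor for the PPBP-derived chemokine on neutrophils, rose by 3.41 and Cxcr1 by 2.96, and Itgam, an integrin chain whose complex binds GPIb-alpha, by 2.61. In this list 5 of 9 tested genes rose and none fell. Cxcr2 and Itgam are also neutrophil genes. Itgam also rose in the male labelled wild type, to 83.0 CPM against 35.6 and 22.9 CPM in its females.

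Neighbours of the members on the chromosome gave mixed values. Of 4 tested genes of the CXC chemokine cluster around Ppbp and Pf4, 1 passed in the male labelled knockout, Cxcl2, at 1.16 and 0.761 CPM in the females and 5.15 CPM in the male. Cxcl5 stood at 0.896 and 1.52 CPM against 0.546 CPM, and Cxcl1 at 0.627 and 0.218 CPM against 0.312 CPM. Both of these rose instead in the male labelled wild type, to 4.01 and 6.92 CPM, where Ppbp and Pf4 did not pass. Around Treml1, 3 of 5 tested Trem genes rose in the male labelled knockout, Trem1 by 2.65, Trem3 by 3.02 and Treml2 by 1.76. Trem2, a macrophage receptor, instead rose under the wild type label, from 4.31 and 3.02 CPM in the females to 21.0 CPM in the male.

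Markers of other blood cells were also high in the male labelled knockout. The 8 members summed to 541 CPM there, against 70.4 to 109 CPM elsewhere. The 10 neutrophil markers summed to 7003 CPM against 244 to 585 CPM, and 9 erythroid markers to 5926 CPM against 853 to 2772 CPM. The upper end of both ranges is the male labelled wild type, at 1.95 and 2.20 times its females. All 10 and all 9 were highest in the male labelled knockout, as were 17.6% of all tested genes. The median log2 difference from its females was 5.08 over the neutrophil list and 2.97 over the erythroid list. Camp and Epb42 passed the filter on low values only through that library. They stood there at 129 and 5.18 CPM, against at most 0.939 and 0.811 CPM elsewhere. Ngp, a gene of immature neutrophil granules, stood at 1050 CPM against 1.23 to 4.52 CPM in the other 5 libraries. Monocyte markers, at 700 CPM against females of 301 to 546 CPM, were higher still in the male labelled wild type, at 806 CPM.

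Markers of other cell types were mixed. B cell markers summed to 73.3 CPM in the male labelled knockout against 150 to 276 CPM elsewhere. Over the 6 genes, the median log2 difference from the females of its label was -1.60, against -0.13 over all genes. T cell markers summed to 38.8 CPM against 38.5 to 173 CPM. The 173 CPM is that of the male labelled wild type, 3.69 times its females, and all 7 T cell markers were highest there. The 6 endothelial markers summed to 5347 CPM in the male labelled knockout against 2823 to 4201 CPM, and Vwf alone gave 1891 CPM of it. Their median log2 difference from its females was 0.07. Vwf, Pecam1 and Tek were highest in that male, while Cdh5, Kdr and Cldn5 lay within the range of the other libraries. Basophil and mast cell markers summed to 14.8 CPM in that male against 3.14 to 8.96 CPM, and Prss34 gave 6.67 CPM and Mcpt8 3.31 CPM of it. Of the 8 listed genes, 3 were highest in that male, while Cpa3 (0.546 CPM) and Ms4a2 (0.468 CPM) were lowest in it. The alveolar macrophage sum of 382 CPM in that male lay within the range of 184 to 413 CPM. Chil3, which is also on the monocyte list, stood at 231 CPM there against 58.4 and 64.5 CPM in the females of its label. Under the wild type label Chil3 stood at 224 to 279 CPM, so the male labelled knockout was not above those libraries. The 6 alveolar epithelial markers summed to 14522 CPM in that male against 15950 to 20965 CPM elsewhere. None of them passed in limma against its females, with a median log2 difference of -0.25, against -0.13 over all genes. The part of blood cell content in the members' difference was not tested.

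**Figure D4:**
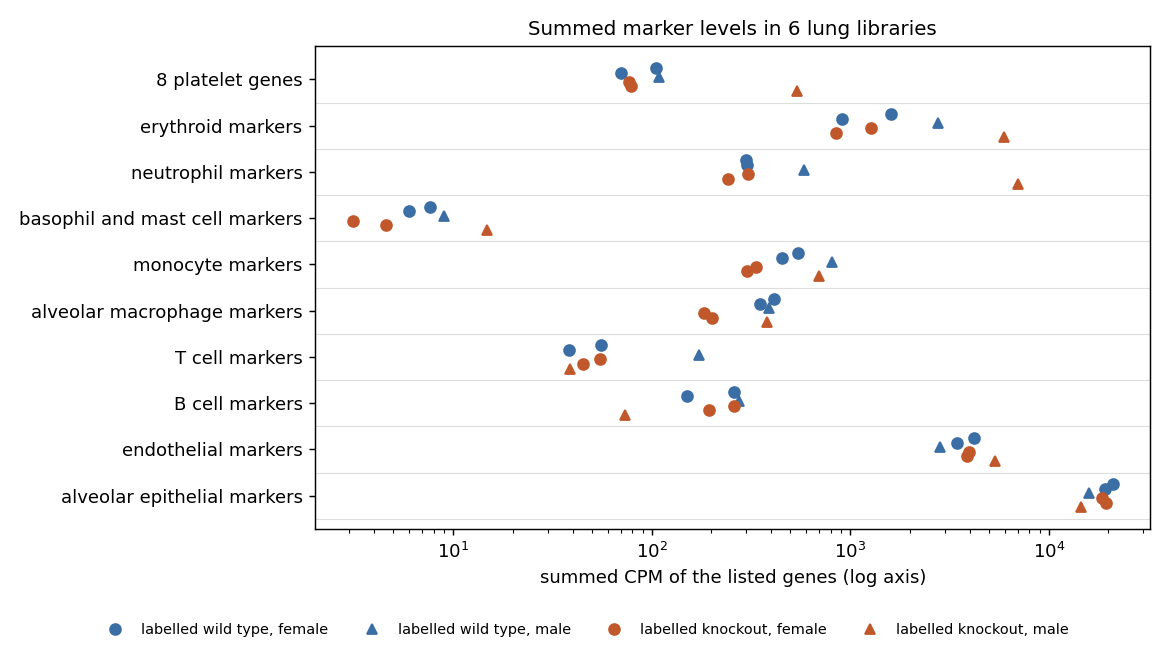
Summed CPM of each marker list on a log axis, 1 point per library, by label and sex. In the male labelled knockout the sums of the members and of the neutrophil, erythroid, basophil and mast cell and endothelial lists stand above those of the other 5 libraries, and those of the B cell and alveolar epithelial lists below. Of the endothelial sum in that library, Vwf gives 1891 CPM. Of the basophil and mast cell sum, Prss34 gives 6.67 CPM and Mcpt8 3.31 CPM.

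The genes whose pattern was most like that of the members were ranked by Pearson's r with the mean log2 level of the 8, over 16017 genes. That mean was 2.40 to 3.10 in 5 libraries and 5.43 in the male labelled knockout. Over the 6 libraries the 8 closest included Gp5 (r = 0.997), Rgs18 (0.994), Slc2a3 (0.993), Tubb1 (0.992), S100a8 (0.990), Alox12 (0.989) and Sarm1 (0.989). Of the 8, 3 are on the platelet lists. Over the 5 libraries without the male labelled knockout the closest were Renbp (0.999), H2-M5 (0.995), Lrrc70 (0.994), Mrpl32 (0.992), Kctd20 (0.990), Rab37 (0.990), Bnc1 (0.990) and Gtf2h2 (0.989). None of the 8 names is in both rankings, and 0 of the latter are on the platelet lists. These values describe 6 and 5 libraries that share a scaling, and the first set rests on 1 library.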

How the data were processed

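RNA-seq of whole lung (total RNA, RNeasy kit, Illumina libraries) was available for 6 libraries, 3 per genotype label. The submitters' processing notes name mm10, TopHat2 and Partek. Versions, annotation, strand setting and filters were not given in the sources used here. The authors deposited CPM with 0.0001 added to every value, which was subtracted. Between 82.4% and 83.6% of values of up to 100 reads were whole multiples of 1 read within 0.05, which is too few to rebuild counts, and a count model was left out.

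limma 3.58.1 (R 4.3.3, variance trend) was fitted to log2(CPM + 0.5) over 17382 genes with a mean of at least 0.5 CPM, two-sided, with Benjamini-Hochberg adjustment over all of them and a threshold of 0.05. The label effect had sex as a term, and the other comparisons came from the 4 combinations of label and sex. The fold changes understate those of low genes. Positions and exon lengths are those of GENCODE M21, and 3 reads were worth 0.109 to 0.148 CPM. The members and lists were chosen with earlier results of these data known, so their counts are descriptions. Genes named are all members, up to 4 of smallest p per list among those past the threshold (or the 2 of smallest p), and the 8 most alike. A few genes that this rule picked are not reported here. Itgav, Tbxa2r and single genes named only from the cell type marker lists, such as Ngp, fall outside the rule. They were named after their values were seen. Alternatives were another pseudocount, other filters and scalings, and leaving out each library. Python 3.11.15, pandas 2.3.3, numpy 2.4.6, scipy 1.17.1 and matplotlib 3.10.9 were used.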

Additional observations from a re-analysis of the deposited data

Results flagged for a closer look

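The difference between labels was not the same in the male and female libraries, by limma's interaction term at an adjusted p under 0.05, for 5 of 8 members and for 9 genes of the platelet, partner and neighbour lists. Of all genes tested 2.54% passed, and without a filter on low values 0 members passed. Among the members the log2 difference of the effects (males minus females) was 3.62 for Ppbp, 2.40 for Pf4, 2.30 for Itga2b, 1.72 for Itgb3 and 2.97 for Gp9. Among other platelet genes it was 2.63 for Gp5, 2.84 for F5, 1.43 for F13a1, 3.01 for Tubb1 and 2.95 for Alox12. It was 2.12 for Vwf, 2.5 for Cxcr2, 2.14 for Trem1 and -3.05 for Trem2, the one of these 14 that ran the other way. Each rests on 1 male per label, so sex and the single library cannot be told apart.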

How the results depend on the processing

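Of the alternatives tried, testing all 21900 genes without a filter changed most. It left 27 calls in the male labelled knockout against its females, 31 in the male labelled wild type, 0 in the interaction, 0 in the females and 6 for the label effect, and it called 0 members in the interaction and 0 in the male labelled knockout. The filter at a mean of 1 CPM, added after the data had been seen, kept 5 members called in the interaction. Centring each library on its median gene gave 6 calls for the label effect, 12 in the females and 8 members in the interaction, quantile normalization gave 6 for the label effect, and a fit on the 4 females alone gave 7. Centring moved the median of all genes from -0.13 to 0.03 in the male labelled knockout and from -0.13 to 0.09 in the interaction. Calls higher and lower went from 431 and 435 to 790 and 310 in the former and from 122 and 319 to 348 and 313 in the latter. Some small differences changed sign with scaling. Gp9 went to 0.029 (centring) and 0.065 (quantile) for the label effect, Gp9 to -0.056 and -0.17 in the male labelled wild type, and Treml1 to -0.069 there (quantile). The cause was not tested.

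With each library left out in turn, calls ranged from 1 to 4 for the label effect, 230 to 577 for the interaction, 2 to 11 in the females, 301 to 1402 in the male labelled knockout and 506 to 852 in the male labelled wild type. Members called ranged from 3 to 6 in the interaction, from 7 to 8 in the male labelled knockout (Treml1 lost without labelled knockout 1, adjusted p = 0.0592 in limma) and from 0 to 1 in the male labelled wild type. Label effects that changed sign ranged from -0.60 to 1.29 for Ppbp, -0.20 to 1.0 for Pf4, -0.14 to 1.05 for Itga2b, -0.48 to 1.57 for Gp1bb, -1.06 to 0.27 for Gp9 and -0.81 to 0.71 for Treml1. In the females the ranges were -0.50 to 0.22 for Itga2b, -1.32 to 0.35 for Gp1bb, -0.098 to 0.28 for Itgb3, -0.49 to 0.092 for Pf4 and -0.041 to 0.21 for Gp1ba. In the male labelled wild type they were -0.19 to 0.13 for Pf4, -0.11 to 0.12 for Gp9, -0.19 to 0.97 for Ppbp, -0.16 to 0.85 for Gp1bb and -0.38 to 0.57 for Treml1. None of these passed the test. Comparisons of a male cannot be fitted without that male. No paired analysis was possible because the labels themselves give no replicate numbers, and those used here only name the libraries in order of deposit.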
